A study of Mus musculus with 20 samples.

Results

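Müller glia are the radial glial cells of the retina. The genes described here are 9 that are widely used to recognise them: Rlbp1, Glul, Slc1a3, Aqp4, Kcnj10, Apoe, Clu, Dkk3 and Vim. They were chosen by name, but with earlier results of these data known. All 9 were found among the 23260 genes of the deposited table of UMI counts (unique molecular identifiers, which count captured RNA molecules). The table covers 79009 single cells from 20 libraries of cultured retina (explants) from wild-type CD1 mice. The tissue received a GFP control construct by electroporation, or one with MEIS1, with MEIS2, or with a 50:50 mixture of both, here called the combination. MEIS1 and MEIS2 are homeodomain transcription factors, and the series text names the pCAGIG vector, which also carries GFP. The stated age is postnatal day 2 (P2) or postnatal day 5 (P5). Each age has 4 control libraries and 2 libraries of each of the 3 MEIS constructs, which makes 8 groups, and the 6 MEIS libraries of an age are described together as well as by construct. Every group shares explant culture, electroporation and the isolation of GFP-positive cells, so cells that took up no plasmid are not represented. The series text names NR2F1 and NR2F2 in the place of MEIS1 and MEIS2 and speaks of days of treatment where the sample labels give an age; the labels of the samples were followed. The treatment tag gives MEIS1 for the P2 libraries titled MEIS2, and MEIS2 for the P5 libraries titled MEIS1; groups follow the titles. Meis1 in progenitors, whose UMIs can come from the construct or the cell's own gene, was at 2099 to 3750.2 CPM in the 4 libraries titled MEIS1, 185 to 344 in those titled MEIS2 and 164 to 354 in controls, and Meis2 at 45.7 to 102, 848 to 1829.8 and 34.6 to 197 CPM. The 4 combination libraries had 699.6 to 1001 CPM of Meis1 and 671 to 1588 of Meis2, and the highest control of both genes was P2 control 1. The labels do not say that the libraries of a group came from separate animals, so p-values measure the spread between libraries, which may be technical. The questions put to these genes were how far they rose in progenitors from P2 to P5 and whether the MEIS constructs changed them.

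Müller glia are the last cell type that retinal progenitors make, and late progenitors already share many transcripts with them. They recycle visual chromophore through Rlbp1, the cellular retinaldehyde-binding protein. They clear glutamate through Slc1a3, the transporter GLAST, and convert it to glutamine with Glul, glutamine synthetase. Aqp4, a water channel, and Kcnj10, the inwardly rectifying potassium channel Kir4.1, carry water and potassium. Apoe and Clu, both apolipoproteins, and Dkk3, a member of the Dickkopf family, are secreted. Vim encodes vimentin, an intermediate filament that progenitors and glia share.

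RefSeq promoter entries (build GRCm38.p6, the release that mm10 corresponds to) were examined for 6 of the 9 genes: Rlbp1, Glul, Slc1a3, Kcnj10, Apoe and Vim. Promoters of Aqp4, Clu and Dkk3 were not examined, so what follows covers these 6 genes only. The 250 bases before the transcription start are shown for 3 of them, Rlbp1, whose progenitor and rod values do not overlap below, Glul, the single one with a MEIS-type motif in this window, and Apoe, one of the genes that rose most, so that the sequences can be read beside the age and MEIS values below. Each is written 5′ to 3′ on its gene's strand, and capitals mark matches, on either strand, to 4 motifs: TGACAG (MEIS), ACAAT (SOX), TGGGAA (RBPJ) and TTGGC (NFI).
Rlbp1 (chr7:79387028-79387277, minus strand): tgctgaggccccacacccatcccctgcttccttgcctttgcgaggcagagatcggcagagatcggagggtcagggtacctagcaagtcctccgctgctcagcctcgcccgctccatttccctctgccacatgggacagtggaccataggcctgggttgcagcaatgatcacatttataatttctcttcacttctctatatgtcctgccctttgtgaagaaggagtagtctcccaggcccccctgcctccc
Glul (chr1:153899679-153899928, plus strand): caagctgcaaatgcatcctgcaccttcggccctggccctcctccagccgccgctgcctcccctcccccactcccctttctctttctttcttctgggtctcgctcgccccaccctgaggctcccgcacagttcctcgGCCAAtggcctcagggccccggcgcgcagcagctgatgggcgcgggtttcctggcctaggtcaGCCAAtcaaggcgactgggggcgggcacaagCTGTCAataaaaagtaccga
Apoe (chr7:19699189-19699438, minus strand): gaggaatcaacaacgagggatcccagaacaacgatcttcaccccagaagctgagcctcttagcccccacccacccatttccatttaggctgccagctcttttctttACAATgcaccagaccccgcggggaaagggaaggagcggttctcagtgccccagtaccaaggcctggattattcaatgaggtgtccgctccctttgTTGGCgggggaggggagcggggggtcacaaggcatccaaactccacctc
The MEIS motif was in 1 of the 6 windows, that of Glul, where its reverse complement CTGTCA lies 20 to 15 bases before the start, and in 15.9% of all 32851 promoter windows of that length. The SOX motif was in 2 of 6, Apoe and Slc1a3 (27.7% of all windows). The NFI motif was in 4 of 6, Apoe, Glul, Kcnj10 and Vim (41.5% of all). The RBPJ motif was in 0 of 6 (21.6% of all). The Rlbp1 window held none of the 4 motifs. Binding at these windows was not measured, and the matches describe letters only. In GENCODE vM21 on mm10, Rlbp1 lies at chr7:79374870-79387048 and Apoe at chr7:19696109-19699188, both on the minus strand, and Glul at chr1:153899944-153909723 on the plus strand.

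Library totals ran from 2376875 UMIs (P2 MEIS2 replicate 2) to 141540352 UMIs (P2 control 1). P2 MEIS2 replicate 2 stood apart: its median was 992 UMIs per cell against 2416 to 14199 in the other 19, and Malat1, a nuclear RNA, took 10.0% of its UMIs. In P2 control 1 the cell names carry a combination label, and in P2 combination 2 a control label, so 3 libraries are doubtful in identity or depth, and the results that rest on them most are also given without them. In 8 further libraries the cell names carry the right group but another replicate number than the title, so the numbers of most controls are uncertain. The library titled P2 combination 2 had 887 CPM of Meis1 and 913 of Meis2 in progenitors, within the range of the other 3 combination libraries, and the library titled P2 control 1 had 354 and 197, below that range and above the other controls. 744 barcodes occurred in more than 1 library (1492 cells, 1.89%). The authors' cell types were used, and a library counted for a type with at least 20 of its cells: progenitors (11818 cells) and rods (38650) passed in all 20 libraries, and cells named Müller Glia (221 in all) in 4. Levels are given as CPM, the UMIs of a gene in every 1000000 UMIs, summed over the cells of 1 type in 1 library. Such sums do not tell more molecules per cell from more cells with the gene. Shares of cells with a UMI are given as well, but a share also rises with the level per cell. It therefore cannot tell these cases apart either.

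Across cell types the 9 genes were highest in cells named Müller Glia or in progenitors when all libraries were pooled. These types were defined by the authors from the same cells, so the order is a description, and the pooled values mix ages in shares that differ between types. With all libraries pooled, Rlbp1 reached 739.7 CPM in progenitors, 388 in cells named Müller Glia and 213 in neurogenic cells, the progenitors on the way to neurons, and at most 7.75 in the other 6 types. Within the controls of 1 age, pooled, progenitors were highest for Rlbp1, Glul, Kcnj10, Dkk3 and Apoe at both ages, and cells named Müller Glia for Vim, Clu and Aqp4. Aqp4 in the latter cells rested on 5 UMIs at P2 and 14 at P5. Apoe was 1089 CPM in P2 control progenitors against 869.9 in cells named Müller Glia, and 8344 against 7312 at P5; the P2 level of the latter cells was 1546 CPM without P2 control 1, so their order at P2 rests on that library. At P5 progenitors were higher in controls 1, 2 and 4, but in P5 control 3, which holds 46 of the 74 cells named Müller Glia, Apoe was 6091 CPM in progenitors and 8523 in those cells. Pooled over all libraries its order was the opposite, 3870.2 in progenitors and 6005 in cells named Müller Glia. Slc1a3 changed order with age: 370 CPM in progenitors and 458 in cells named Müller Glia at P2, and 1254 and 850.0 at P5. Clu in cones lay above progenitors at P2 (38.2 against 6.50 CPM), while at P5 it was 101 in cones, on 61 UMIs, and 109 in progenitors. Neurogenic cells came after these types for most of the genes, with 2414 CPM of Apoe, 388 of Rlbp1 and 395 of Vim in P5 controls. Over all 20 libraries the rod values of Rlbp1 ran from 0.915 to 11.4 CPM and the progenitor values from 117 to 1906, without overlap, while those of Clu overlapped (rods 8.66 to 186, progenitors 3.05 to 274). Neighbours low in the order, such as rods, bipolar and amacrine cells for Rlbp1 (3.90, 3.997 and 3.89 CPM pooled), overlapped library by library. The plot of levels by cell type gives all 9 genes, pooled over ages.

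**Figure D1:**
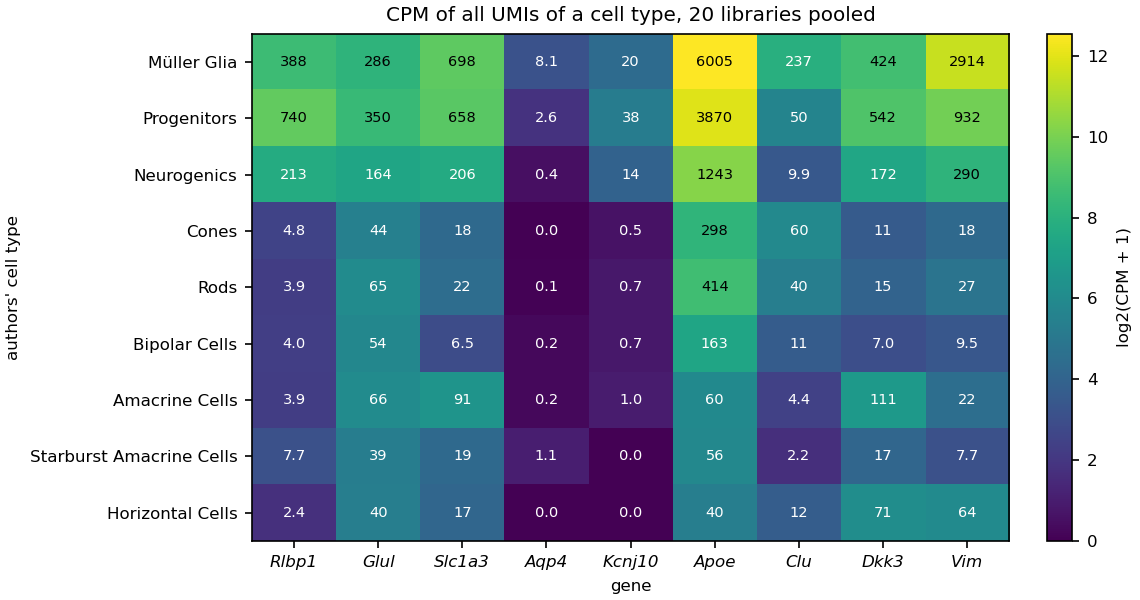
CPM of the 9 genes (columns) in each of the authors' cell types (rows), from the UMIs of all 20 libraries summed; colour is log2(CPM + 1) and the number in each cell is the CPM. Compared within a column, the Müller Glia and Progenitors rows hold the highest value for every gene, and for Clu cones (59.9 CPM) lie above progenitors (49.7 CPM); the libraries of both ages are pooled.

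The cells named Müller Glia did not match the label on every marker. All 9 genes were detected in them, but the genes that set them apart most from the other types were led by Gfap (228 CPM against at most 1.62 elsewhere), Cartpt (599 against 13.7), S100a6 (408 against 11.6) and Ccl2, with Pax2 (121 against 2.15) and S100b (115 against 6.09) among the first 11. Gfap, Pax2 and S100b are markers of retinal astrocytes, though Gfap is also raised in reactive Müller glia. The other 3 of the 6 astrocyte markers were low in these cells, Aldh1l1 at 5.94 CPM, Fgfr3 at 1.19 and Slc39a12 at 0.238, and all 3 were at 0 in the P2 controls. None of the 9 genes was among those first 11. The name is therefore kept here only as the authors' label. By age, Rlbp1 in these cells was 89.9 (exact Poisson 70.2 to 113) CPM in the P2 controls, from 59 cells, and 404 (exact Poisson 372 to 437) in the P5 controls, from 74 cells; the intervals cover counting error only. Apoe was 869.9 and 7312 CPM, Glul 133 and 334, Clu 105 and 254, and Vim 2578 and 3026. Most P2 control cells of this name, 40 of 59, came from P2 control 1, one of the doubtful libraries. Without it the P2 values were 1546 CPM for Apoe, 137 (exact Poisson 89.3 to 200.3) for Rlbp1, 99.9 for Glul, 52.6 (exact Poisson 25.2 to 96.7) for Clu and 2734 for Vim, from 19 cells. An age test of these cells was not run. At P5 the pooled control progenitors had more Rlbp1 (1334 CPM), Slc1a3 (1254 against 850.0), Apoe (8344 against 7312), Glul (411 against 334), Dkk3 (602 against 460.5) and Kcnj10 (58.0 against 23.0) than the cells named Müller Glia, and less Vim (1316 against 3026), Clu (109 against 254) and Aqp4 (5.79 against 9.45). Aqp4 in the cells named Müller Glia rested on 14 UMIs and was 0 in P5 controls 2 and 4. In P5 control 4 Clu had the opposite order, 82.0 CPM in progenitors against 22.6, as Apoe had in P5 control 3.

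In control progenitors 8 of the 9 genes rose from P2 to P5, and Dkk3 did not pass the test (edgeR quasi-likelihood test on the summed UMIs, 4 against 4 libraries; the threshold for a call is an adjusted p of 0.05, by Benjamini-Hochberg over all 14849 genes tested). Of all genes tested, 10.6% were called higher at P5. This share is given for scale, since the 9 were chosen with earlier results of these data known. The median log2 difference of the 9 was 1.97, and that of all genes -0.044. Progenitors is the authors' label, and whether it covers the same kind of cell at both ages was not tested. For all 9, Dkk3 included, every P5 control lay above every P2 control, which 11.0% of all genes did. All 9 passed the filter on low counts, which keeps a gene that reaches 1.47 CPM in at least 2 libraries of any group. Aqp4 passed through P5 alone, with 0 of 10 P2 and 10 of 10 P5 libraries over that level. It therefore had to differ to be tested. Its place in any age count of the 9 in progenitors, above or below, that of libraries without overlap included, is no support. Without it 7 of 8 genes rose in controls, with a median log2 difference of 1.76. In the MEIS libraries described below 7 of 8 rose too, with a median of 1.69. Without P2 control 1, 8 of the 9 were again called in controls, with log2 differences of 2.35 for Rlbp1, 2.74 for Apoe and 4.56 for Clu. The 10.6% above belongs to the fit with all libraries. Over the fits that left out 1 control each, 1573 to 3214 of all genes were called, higher or lower. DESeq2, run after the same filter, called all 9 as higher in controls, Aqp4 among them, against 11.6% of the genes it gave an adjusted p.

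Rlbp1, the retinoid carrier, was at 291, 297, 117 and 359 CPM in P2 control progenitors, replicates 1 to 4, and at 1155, 1695, 1135 and 1395 CPM at P5. P2 control 3 was the lowest of the 8 and the groups were far apart. The mean rose 5.06 times, a log2 difference of 2.36 (SE 0.31, adjusted p = 0.00013).

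Of the glutamate pair, Slc1a3 was at 422, 249.5, 165 and 434 CPM at P2 and 996, 1326, 1292 and 1304 at P5. Every P5 value exceeded the highest P2 value more than 2 times. The log2 difference of Slc1a3 was 1.97 (SE 0.29, adjusted p = 0.00028). Glul was at 264, 209.7, 182 and 280.0 CPM at P2 and 536, 435, 343 and 419 at P5. Its groups came close, P5 control 3 lying just above P2 control 4, and its log2 difference was 0.91 (SE 0.24, adjusted p = 0.016). Without the P5 replicate 1 libraries, whose mitochondrial percents were higher, the Glul difference was 0.73 (adjusted p = 0.13), and it was also not called without P2 control 2 (adjusted p = 0.054) or P5 control 1 (0.064).

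The channel genes were at low levels, and Aqp4 rested on few UMIs. Kcnj10 was at 22.9, 16.6, 11.01 and 34.2 CPM at P2 and 57.5, 62.6, 49.0 and 79.5 at P5, a log2 difference of 1.55 (SE 0.27, adjusted p = 0.00099). Aqp4 was at 0.468, 0.406, 0.524 and 0.881 CPM at P2, which rests on 15, 2, 4 and 7 UMIs, and at 9.98, 4.32, 4.86 and 6.86 at P5. The log2 difference of Aqp4 was 3.50 (SE 0.45). Since Aqp4 entered the test through its P5 level alone, its p-value is no support for a rise and is left out. Over all libraries the cells named Müller Glia had 8.08 CPM of Aqp4.

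Among the secreted proteins, Apoe was at 920.4, 1219, 632 and 2127 CPM at P2 and 13675, 9017, 6091 and 7084 at P5, so that the lowest P5 library held well over 2 times the highest P2 library. The log2 difference of Apoe was 2.90 (SE 0.46, adjusted p = 0.00055). Clu was at 7.57, 3.05, 3.54 and 7.18 CPM at P2, which rests on 243, 15, 27 and 57 UMIs, and at 156, 141, 75.6 and 82.0 at P5. Its log2 difference of 4.41 (SE 0.71, adjusted p = 0.00057) was the largest of the 9. Dkk3 was at 554, 465, 380.0 and 487 CPM at P2 and 564, 608, 563 and 781 at P5. The 2 ages of Dkk3 were separated only by the gap between P2 control 1 and P5 control 3, and its log2 difference was 0.42 (SE 0.18, adjusted p = 0.12). Vim, the filament gene, was at 633, 638, 405 and 665 CPM at P2 and 1320.0, 1395, 1290.0 and 1206 at P5, a log2 difference of 1.17 (SE 0.28, adjusted p = 0.0085). Without the P5 replicate 1 libraries that of Vim was 1.11 (adjusted p = 0.058). The plot of progenitor values by library shows each of these values.

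**Figure D2:**
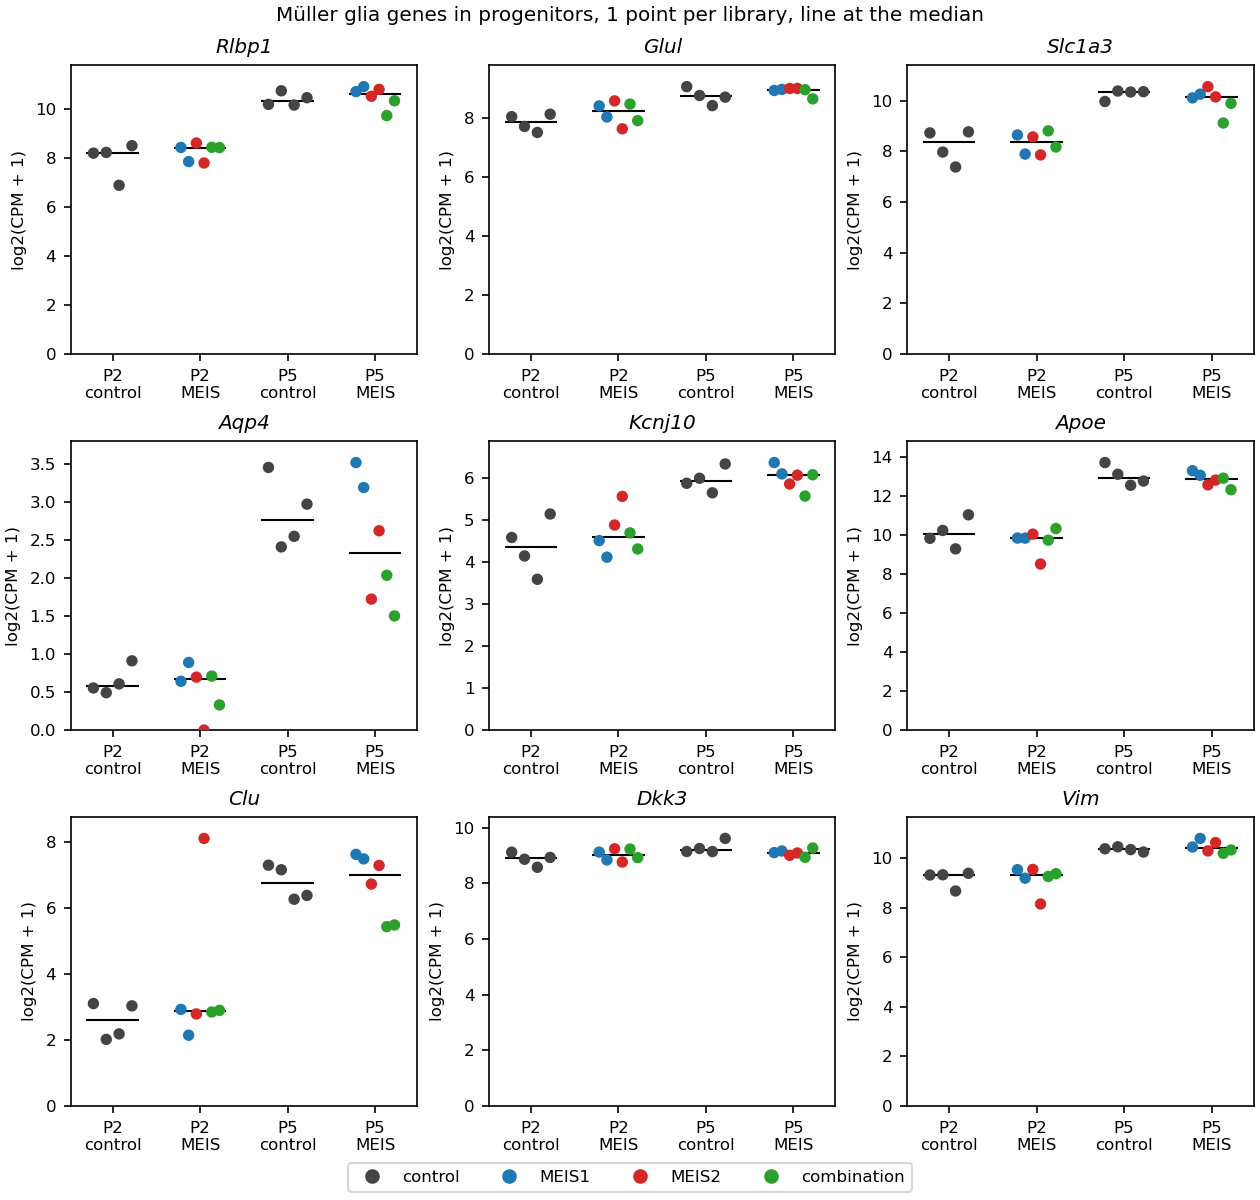
Level of each gene in progenitors as log2(CPM + 1) (vertical axis, from 0), 1 point per library, for the 4 control and 6 MEIS libraries of each age; colours give the construct and the line is the median. The P5 controls lie above the P2 controls in all 9 panels, and 1 P2 MEIS2 library lies apart from the other P2 libraries for Clu (273.7 CPM).

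The 12 MEIS libraries, which share none with the controls, gave the age difference a second time. Again 8 of the 9 genes were called higher at P5 (background 15.2% of genes), with a median log2 difference of 1.83 against -0.022 for all genes, and again Dkk3 was not, at 0.23 (SE 0.15, adjusted p = 0.25). The P5 libraries all lay above the P2 libraries for 7 of the 9 (4.69% of all genes), the exceptions being Clu and Dkk3. Aqp4, tested through its P5 level alone, is among the 7 and among the 8 called. Rlbp1 ran over 219.9 to 387, median 341 CPM at P2 and 840.5 to 1906, median 1556 at P5, a log2 difference of 2.39 (SE 0.26, adjusted p = 1e-05). Apoe ran over 367 to 1303, median 927 and 5193 to 10223, median 7582 CPM, a log2 difference of 3.22 (SE 0.38, adjusted p = 2.6e-05). Slc1a3 ran over 231 to 446, median 332 and 553 to 1495, median 1115 CPM. The ages of Slc1a3 were apart in every library, with a log2 difference of 1.83 (SE 0.24, adjusted p = 5.3e-05). For Glul, Aqp4, Kcnj10 and Vim the log2 differences were 0.88, 3.11, 1.55 and 1.39. Clu gave 2.88 (SE 0.55, adjusted p = 0.0012), with P2 values that include the 273.7 CPM of P2 MEIS2 replicate 2; without that library the difference was 4.32 (adjusted p = 2.1e-06).

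A larger share of progenitors held a UMI of these genes at P5. Depth differed between libraries, so each cell was thinned to 2000 UMIs and shallower cells were left out: 158 of 5608 P2 control and 6 of 1693 P5 control progenitors. Rlbp1 then had a UMI in 35.2% (95% exact interval 34.0 to 36.5) of P2 control progenitors and in 85.5% (95% exact interval 83.8 to 87.2) at P5; as deposited the shares were 64.5% and 96.2%, and without P2 control 1 the thinned P2 share was 33.1% of 2989 cells. In rods, which should lack it, the thinned shares of Rlbp1 were 0.353% and 1.34%. Slc1a3 went from 40.2% to 84.2% of progenitors, against 4.09% and 2.96% of rods. Vim went from 57.9% to 83.4%, Glul from 37.6% to 51.8%, and Dkk3 from 59.1% to 64.9%. Apoe was in 68.8% of progenitors at P2 and 98.1% at P5, but also in 33.5% and 43.9% of rods. With all libraries pooled, Apoe in rods (414 CPM) lay above bipolar (163) and amacrine cells (60.3), and how much of it is free RNA was not tested. Clu was in 0.807% and 13.0% of progenitors, and in 2.55% and 10.8% of rods, so its shares did not set progenitors apart from rods; without P2 control 1 the P2 share of Clu in progenitors was 0.535%. A UMI of at least 3 of the 9 genes was present in 63.1% of P2 and 96.3% of P5 control progenitors, and in 1.07% and 1.15% of rods. Over the 4 libraries of a group the Rlbp1 share was 19.2% to 47.0% at P2 and 81.6% to 91.4% at P5, which is wider than the intervals, since they cover counting error only.

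**Figure D3:**
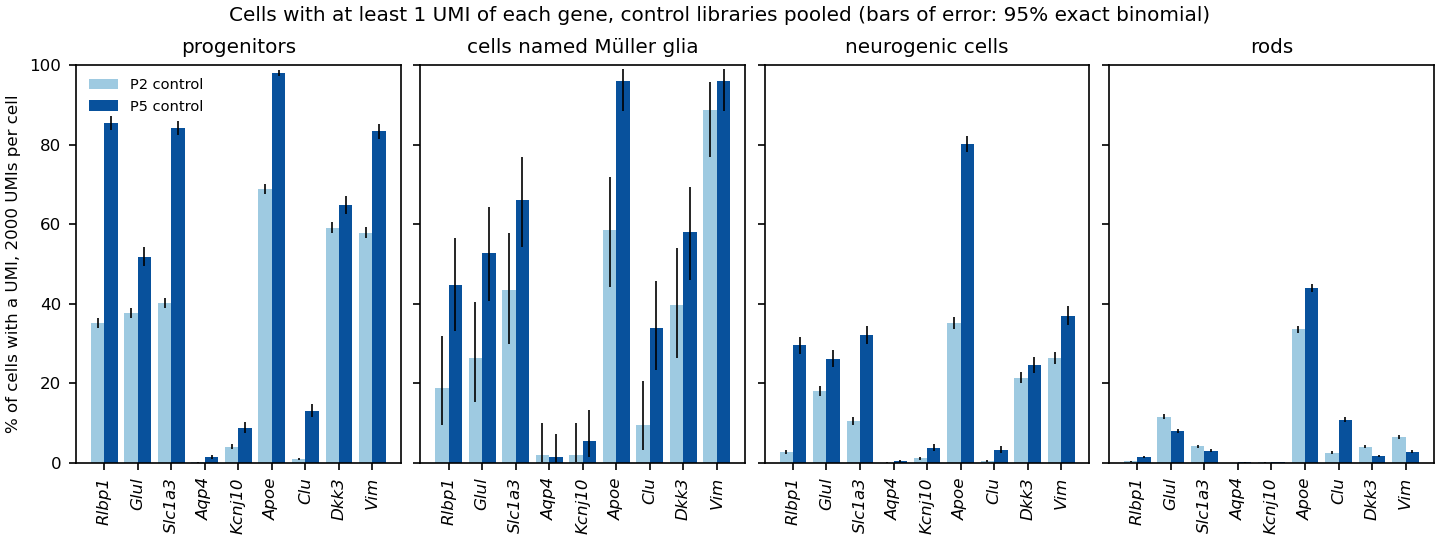
Percent of cells with at least 1 UMI of each gene (vertical axis, 0 to 100) after thinning to 2000 UMIs per cell, in pooled P2 and P5 control cells of 4 types; error bars are 95% exact binomial intervals. In progenitors Rlbp1 goes from 35.2% to 85.5%, while in rods it is 0.353% and 1.34%.

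The share of progenitors with mitotic transcripts was lower at P5. A UMI of any of 12 mitotic genes, among them Mki67 and Top2a, was present in 33.6%, 35.1%, 54.5% and 11.3% of thinned P2 control progenitors, replicates 1 to 4, and in 7.77%, 5.11%, 25.9% and 5.00% at P5. The library with the highest mitotic share of each age, control 3, had the lowest level of 7 of the 9 genes at P2, as of 41.5% of all genes tested, and of 6 at P5, as of 15.3%. Inside each of the 4 P2 control libraries, 7 of the 9 genes were lower in progenitors with a mitotic UMI than in those without, Aqp4 and Clu being the exceptions on few UMIs. The share of all genes lower in this way was not counted, so the 7 have no background and are not read as particular to these genes. Rlbp1 was at 108, 112, 42.3 and 185 CPM with a mitotic UMI, replicates 1 to 4, and at 396, 398, 212 and 380.0 without. Apoe was at 411, 586, 371 and 1355 CPM with and 1196, 1535, 1040 and 2363 without. A cell without a mitotic UMI after thinning can still be in the cell cycle, so that class is not free of cycling cells. Among progenitors without a mitotic UMI, 6 of the 8 genes tested were called higher at P5 in controls (background 7.06% of 9284 genes), with a median log2 difference of 1.40. Rlbp1 gave 2.07 (SE 0.30, adjusted p = 6.2e-05) there and Apoe 2.61 (SE 0.44, adjusted p = 0.00032). Glul was not called, at 0.73 (SE 0.27, adjusted p = 0.09), nor was Dkk3, and Aqp4 had too few UMIs to be tested. Progenitors with a mitotic UMI were too few at P5 for a test. Pooled controls had 88.8 CPM of Rlbp1 at P2 and 549 at P5, 170.2 and 702 CPM of Slc1a3, and 479 and 3666 CPM of Apoe. Of these P5 cells, 254 came from P5 control 3 and 15, 19 and 7 from controls 1, 2 and 4. The pooled P5 values thus rest mostly on 1 library.

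Markers of other cell types were also present in the progenitor sums. The summed CPM of 7 microglial markers was 9.82 to 20.6 in P2 controls and 18.2 to 78.8 in P5 controls, all 7 being detected. That of 6 astrocyte markers was 3.78 to 6.90 in P2 and 10.8 to 34.5 in P5 controls, all 6 being detected, with Gfap at 1.62 and Pax2 at 0.141 CPM over all progenitors. Of the 5 endothelial markers, Kdr alone gave 507 CPM and Cdh5 0.0450, and their sum was 276 to 515 and 633 to 882. The 4 pericyte markers summed to 1.68 to 9.19 CPM in P2 and 9.87 to 18.4 in P5 controls, with Kcnj8 at 0 at P2, and the 5 markers of pigment epithelium and ciliary cells to 7.21 to 14.6 and 14.96 to 30.4, with Rpe65 at 0 at both ages. Bipolar and horizontal markers were lower at P5, at 2.18 to 8.64 against 9.75 to 14.7 and 1.56 to 5.73 against 10.6 to 28.9 CPM, and the ranges of rod, cone and amacrine markers overlapped between the ages. The 9 Müller glia genes summed to 1896 to 4394 CPM in P2 controls and 10842 to 18469 in P5 controls. The 8 progenitor markers, 2 of which are also on the mitotic list, were all detected at both ages, at 1138 to 2375 and 978 to 1735 CPM, and the 8 neurogenic markers at 1106 to 1286 in P2 and 124 to 628 in P5 controls. The cells named progenitors at the 2 ages thus differed in neurogenic, bipolar and horizontal markers. The part of these markers, and of the mitotic share, in the age difference was not tested, and the split by mitotic UMI cannot settle it.

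The rise was not particular to progenitors: 6 of 8 genes rose in neurogenic cells too, while in rods 1 of 8 rose. In control neurogenic cells 6 of the 8 genes tested were called higher at P5 (background 6.67% of 13745 genes), and in the MEIS libraries 6 of 8 (9.14%); Aqp4 did not pass the filter. Rlbp1 in neurogenic cells was at 12.4, 11.5, 7.99 and 27.0 CPM in P2 controls and 188, 642, 338 and 351 in P5 controls, with no overlap and a log2 difference of 4.59 (SE 0.51, adjusted p = 1.8e-05). That difference was larger than in progenitors of the same libraries, the progenitor difference less the neurogenic one being -2.22 (SE 0.36, adjusted p = 0.00055). Apoe rose by 2.87 (SE 0.35) in neurogenic cells and Slc1a3 by 2.50 (SE 0.40), and neither was called as different from progenitors in the test (0.032 and -0.48, adjusted p = 0.98 and 0.31). Other markers moved with age in the neurogenic cells too: the sum of the 8 progenitor markers was 154 to 218 CPM in P2 controls and 702 to 1396 in P5 controls, that of the 8 neurogenic markers 2631 to 6207 and 1273 to 2645, and that of the 6 bipolar markers 40.9 to 58.0 and 165 to 299.5. The cells of this name at the 2 ages thus differed in these markers, and their part in the neurogenic rise was not tested.

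Between progenitors and neurogenic cells the test of the difference itself, on both types of the same libraries, called 1 of the 9 genes as rising more in progenitors (4.27% of 15080 genes) and 1 as rising less (8.77%). The first was Clu, with 1.73 (SE 0.40, adjusted p = 0.0086), and the second Rlbp1.

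In control rods 1 of the 8 genes tested rose (background 7.24% of 14786 genes) and 2 fell (5.94%). Clu rose, from 15.04, 10.3, 11.5 and 17.3 CPM to 70.4, 93.1, 37.4 and 60.5, by 2.17 (SE 0.51, adjusted p = 0.0098). Vim and Dkk3 fell by 1.81 and 1.95 on the log2 scale (adjusted p = 0.011 and 0.0032). Vim in rods was at 38.6, 52.9, 45.8 and 34.4 CPM at P2 and 12.6, 13.9, 20.7 and 4.09 at P5. Apoe in rods gave 0.17 (SE 0.53, adjusted p = 0.88), and Rlbp1 1.43 (SE 0.48, adjusted p = 0.055) at levels of a few CPM. DESeq2 called 2 of the 8 higher in rods, against 8.99% of all genes it gave an adjusted p. Tested within the same libraries, 6 of the 9 genes had a larger P5 minus P2 log2 difference in progenitors than in rods (11.8% of 16256 genes). It was larger by 3.16 (SE 0.46) for Vim, 3.05 (SE 0.55) for Apoe, 2.48 (SE 0.43) for Dkk3, 2.36 (SE 0.21) for Slc1a3, 2.26 (SE 0.33) for Clu and 1.28 (SE 0.29) for Glul. For Vim and Dkk3 it includes the fall in rods, and Dkk3 was not called as rising in progenitors. Rlbp1, Aqp4 and Kcnj10 were not called, at 0.97 (SE 0.41, adjusted p = 0.096), 2.90 (SE 1.19, adjusted p = 0.094) and 1.09 (SE 0.45, adjusted p = 0.095); each is near 0 in rods. In amacrine cells 0 of 7 genes were called with age in controls (edgeR, background 0.397% of 13097 genes). An unadjusted p under 0.05 was found for 1 of the 7, as for 1166 of all genes. This was Slc1a3, at -1.19 (SE 0.44, adjusted p = 0.4). The plot of age differences sets the 3 main types side by side.

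**Figure D4:**
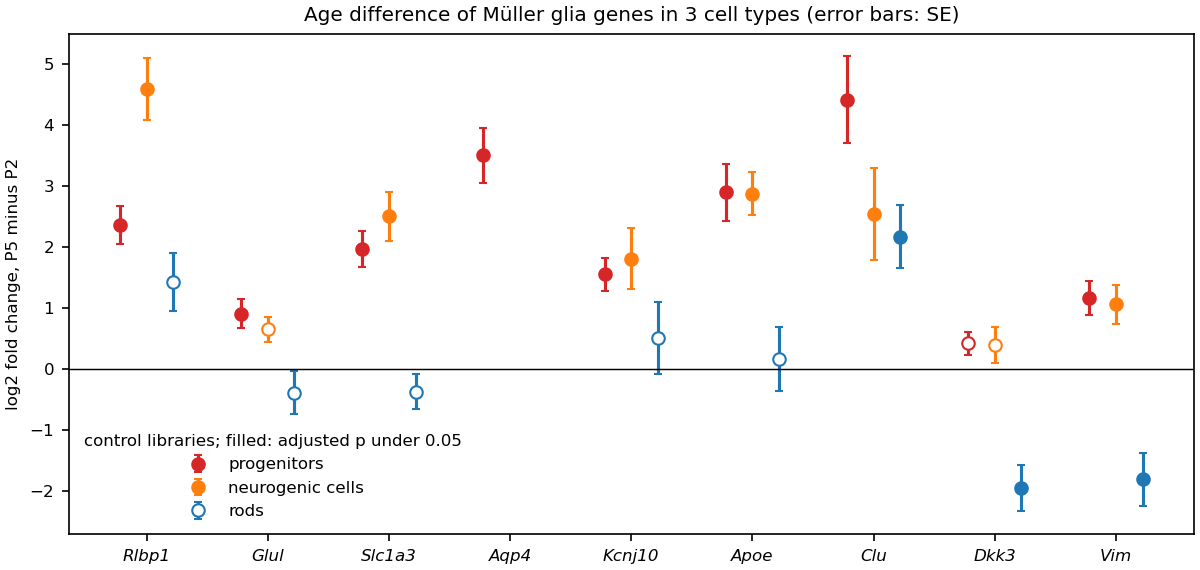
Log2 fold change from P2 to P5 in control libraries (vertical axis) for each gene in progenitors, neurogenic cells and rods; bars are standard errors and filled points were called. The Rlbp1 point of neurogenic cells (4.59) lies above that of progenitors (2.36), and the rod points of Dkk3 and Vim lie below 0.

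The MEIS constructs gave no call among the 9 genes in progenitors. With the 3 constructs averaged against control, 0 of 9 were called at P2 and 0 of 9 at P5 (edgeR), against 0.0135% and 0.0202% of all 14849 genes, which is 2 and 3 genes (1357 and 284 had an unadjusted p under 0.05); 0 of the 9 had an unadjusted p under 0.05 at either age. DESeq2 likewise called 0 of 7 at P2, where it gave Aqp4 and Kcnj10 no adjusted p, and 0 of 9 at P5, against 0.218% and 0.0404% of the genes it gave an adjusted p. The groups overlapped for every one of the 9, as for nearly all genes. Of all genes tested, 0.882% at P2 and 0.357% at P5 did not overlap. At P2 the log2 differences were 0.051 (SE 0.27) for Rlbp1, 0.16 (SE 0.22) for Glul, -0.12 (SE 0.26) for Slc1a3, -0.12 (SE 0.50) for Aqp4 and 0.019 (SE 0.25) for Kcnj10. They were -0.63 (SE 0.39) for Apoe, 1.33 (SE 0.64) for Clu, -0.036 (SE 0.17) for Dkk3 and -0.14 (SE 0.25) for Vim. Apart from Clu and Apoe, each was smaller than its standard error, so an effect of that size was not detectable in these libraries. The count over all genes at P2 depended on the libraries: it was 492 without the 3 doubtful libraries, 414 with groups taken from the start of the cell names, and 761 without P2 MEIS2 replicate 1, where 1 of the 9, Clu, was called; without the 3 doubtful libraries 0 of the 9 were.

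At P5 the log2 differences were 0.082 (SE 0.27) for Rlbp1, 0.13 (SE 0.22) for Glul, -0.26 (SE 0.26) for Slc1a3, -0.51 (SE 0.35) for Aqp4 and 0.017 (SE 0.24) for Kcnj10. They were -0.31 (SE 0.39) for Apoe, -0.21 (SE 0.55) for Clu, -0.22 (SE 0.17) for Dkk3 and 0.076 (SE 0.25) for Vim. The values at P5 show the overlap: Rlbp1 was 840.5 to 1906, median 1556 CPM in the MEIS libraries and 1135 to 1695, median 1275 in the controls, and Glul 402 to 514, median 500.2 and 343 to 536, median 427. Whether the MEIS effect differed between the ages was tested directly, and 0 of 9 genes and 0% of all genes were called (edgeR; 331 of 14849 genes and 0 of the 9 had an unadjusted p under 0.05).

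**Figure D5:**
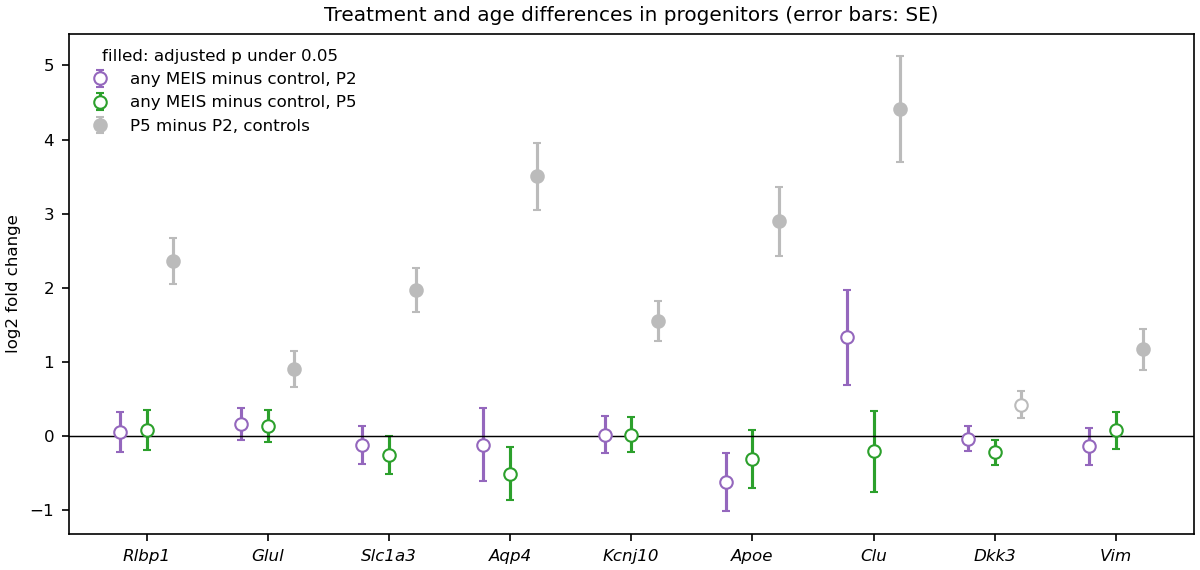
Log2 fold change in progenitors (vertical axis) of any MEIS construct against control at P2 and at P5, beside the P5 minus P2 difference of the controls in grey; bars are standard errors and filled points were called. The treatment points lie between -0.63 (Apoe at P2) and 1.33 (Clu at P2) and none is filled, while 8 of 9 grey points are.

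Each construct alone gave the same count of 0 of 9 at both ages (edgeR). An unadjusted p under 0.05 was found for Clu under MEIS2 at P2, as for 2366 of the 14849 genes tested. Aqp4 had one under the combination at P5, as had 582 of all genes. None of the 9 had one in the other 4 contrasts, where 153 to 511 genes did. DESeq2 called 1 of the 9, Clu, under MEIS2 at P2, where it called 7.04% of all genes it gave an adjusted p. The background shares in edgeR were 0.00673%, 0.0404% and 0.0135% of genes for MEIS1, MEIS2 and the combination at P2, and 0.00673%, 0.00673% and 0.0135% at P5. These contrasts share their controls and rest on 2 libraries each. The largest value was Clu under MEIS2 at P2, 4.23 (SE 0.79, adjusted p = 0.057). Clu was at 5.90 CPM in P2 MEIS2 replicate 1 and at 274 in replicate 2, against 3.05 to 7.57, median 5.36 in controls; without replicate 2 the log2 difference was -0.10 (adjusted p = 0.98). In that library Clu was high in the other 3 types with at least 20 cells too: 186 CPM in rods against at most 17.3 in the other 9 P2 libraries, 141 against 7.91 in amacrine cells and 90.7 against 4.61 in neurogenic cells. At P5 the 2 combination libraries held the lowest value of the 6 MEIS libraries for all 9 genes, replicate 1 for 6 of them and replicate 2 for 3, and 31.4% of all genes tested were lowest in one of these libraries. Replicate 2 also held the highest Dkk3 of the 6, 615 CPM. Their log2 differences from control were -1.36 (SE 0.50, adjusted p = 1.00) for Aqp4, -1.45 (SE 0.79, adjusted p = 1.00) for Clu and -0.73 (SE 0.36, adjusted p = 1.00) for Slc1a3, none of them called. Combination replicate 1 also had the highest mitotic share of the P5 MEIS libraries, 24.5%, against 4.96% to 9.38% in the other 5.

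Other cell types likewise gave no call for MEIS (edgeR). In rods 0 of 8 genes were called at P2 and at P5 (background 0% and 0% of genes), in neurogenic cells 0 of 8 at both ages (0% and 0.00728%), in amacrine cells 0 of 7 at both ages (0% and 0%), and in bipolar cells, tested at P5 only, 0 of 7 (0.00748%). At an unadjusted p under 0.05 there was 1 gene in amacrine cells at P2, Apoe, beside 543 of all 13097 genes, and 0 in the others. All genes under that level were 1618 at P2 and 107 at P5 in rods, and 1477 and 225 in neurogenic cells. In amacrine cells at P5 they were 163, and in bipolar cells at P5 485. For cells named Müller Glia, 3 control and 3 MEIS libraries at P5 had at least 10 cells, and 0 of 8 genes were called there (0% of 5975 genes, 308 of which had an unadjusted p under 0.05, and 0 of the 8). Rlbp1 in them was 527 (exact Poisson 494 to 563) CPM pooled over the P5 MEIS libraries, with a fitted log2 difference of 0.12 (SE 0.40), and Apoe gave -0.040 (SE 0.38).

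Of 56 other genes known from Müller glia, also listed with earlier results of these data known, 53 were tested in progenitors. In controls 26 were called higher and 1 lower at P5 (background 10.6% higher), with a median log2 difference of 0.84. In the MEIS libraries 32 were higher and 1 lower (15.2% higher). The same 23 genes were called higher in both. The 6 with the smallest p in controls included Col9a1, Gpr37, S100a16, Car2 and Dag1. Col9a1, a collagen IX chain, was at 45.6 to 99.9 CPM in P2 controls and 439.6 to 780.0 in P5 controls, a log2 difference of 3.05 (SE 0.30, adjusted p = 9.6e-06). Car2, carbonic anhydrase 2, was at 219 to 338 and 1152 to 2102 CPM and rose by 2.60 (SE 0.31, adjusted p = 4.3e-05). Dag1 encodes dystroglycan, a receptor for extracellular matrix in glial endfeet, and rose by 1.20 (SE 0.15). Gpr37, a receptor, and S100a16, a calcium-binding protein, rose by 2.16 (SE 0.22) and 4.40 (SE 0.50). Fabp7, a fatty-acid-binding protein of immature radial glia, fell, from 176 to 258 to 6.86 to 100.5 CPM, by 2.46 on the log2 scale (adjusted p = 0.036). By function, 4 of 7 tested genes of water, ions and pH rose in controls, 4 of 6 of secreted and matrix proteins, 2 of 3 of glutamate and amino acid transport, 2 of 3 of filament and junction proteins, 1 of 2 of retinoid metabolism, 2 of 5 of lipid handling (with Fabp7 lower), 8 of 14 of other function, and 3 of 13 of transcription and Notch signalling. In that last group Sox9, Hes1 and Hes5 gave 0.056 (SE 0.34), 0.36 (SE 0.43) and -0.052 (SE 0.45), none called. No gene of the list was called for any MEIS against control at either age.

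Over 105 sums of 1 library and 1 cell type with at least 20 cells, Clu had the pattern least like that of the others. Pearson's r of a gene's log2(CPM + 1) with the mean of the other members was 0.916 for Rlbp1, 0.915 for Kcnj10, 0.912 for Slc1a3 and 0.909 for Vim, and 0.325 for Clu; Glul, Apoe, Aqp4 and Dkk3 lay between, at 0.888, 0.855, 0.794 and 0.746. These sums share libraries, depth and cell types, so the values describe a pattern and carry no p. Among 11331 genes with a mean of at least 5 CPM, the 8 others most like the mean of the 9 were Rab20 (r = 0.961), Col9a1 (0.960), 2900052N01Rik (0.956), Pmp22 (0.955), Ctsc (0.954), Cp (0.952), Fxyd1 (0.952) and Vcam1 (0.949). In progenitors Pmp22, a myelin protein gene, was at 39.7 to 54.8 CPM in P2 controls and 107 to 119 in P5 controls, and Ctsc, cathepsin C, at 14.8 to 21.2 and 73.3 to 159. Cp, ceruloplasmin, was at 339 to 873 and 794 to 1431 CPM and Fxyd1, a regulator of the sodium pump, at 88.6 to 329 and 249 to 517, so that the ages of these 2 overlapped.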

How the data were processed

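Single cells from 20 libraries were profiled with the 10x 3′ v3.1 kit. The authors deposited 1 table of raw UMI counts per gene and cell, holding 501 to 46192 UMIs per cell, with a cell table giving their cell types, library and percent of mitochondrial UMIs; every percent used was checked against the deposited counts. Per the submitters' processing notes, Cell Ranger (version not given in the sources used here), Seurat 5 and build mm10 were used. Each cell's library came from that table. UMI counts were summed per library and cell type (at least 20 cells) and tested with edgeR 4.0.16 (quasi-likelihood, TMM, filterByExpr, 8 groups, R 4.3.3), two-sided, with Benjamini-Hochberg adjustment over all genes tested and 0.05 as threshold. MEIS contrasts at 1 age share their controls. Shares of cells used cells thinned to 2000 UMIs, also 1000. Scrublet (scanpy 1.11.5, expected rate 6%) marked 749 of 11818 progenitors; it marked under 0.5% of cells in 7 of 20 libraries (0 of 4712 in P2 control 2, 1 of 6292 in P5 control 1), so doublet removal tests little there, and doublets were kept in the main results. The test was checked on simulated data for the age contrast of controls. It recovered 51 of 100 genes with a true log2 change of 1 and 89 of 100 with 2, with 7 false calls. An earlier run with another random seed recovered fewer at 1 and more at 2. No change was simulated for the MEIS contrasts. DESeq2 1.42.0 was run as an alternative, as were fits without TMM factors or the filter, at least 50 cells, a replicate block, the compared groups alone, groups from cell-name starts, thinning, doublet removal, mitotic split and libraries left out. Genes named beyond the 9 are the 6 with the smallest p among those called higher and every one called lower of the 56 listed (1 of them is not reported here), and the 8 most like the mean of the 9; Sox9, Hes1 and Hes5 were named after their values were seen. The 9 genes and all lists were chosen with earlier results of these data known.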

Additional observations from a re-analysis of the deposited data

Results flagged for a closer look

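Of 40 tests for a single progenitor library far from the rest of its group of 4 or 6, 7 found one. The same libraries recur in the tests of each gene and of the mitotic share, and the MEIS groups mix constructs. A chance rate of about 1 in 20 holds for independent tests of uniform groups, so the count is not compared with it. In P2 MEIS2 replicate 2, the library of low depth, Clu was at 273.7 CPM, above the other P2 MEIS libraries, and Vim at 281 CPM, below them. Vim was at 405 CPM in P2 control 3, below the other P2 controls. Slc1a3 was at 996 CPM in P5 control 1, below the other P5 controls, and Glul at 402 CPM in P5 combination 2, below the other 5 P5 MEIS libraries. The share of progenitors with a mitotic UMI stood apart in P5 control 3 (25.9%) and P5 combination 1 (24.5%), both above the rest of their group. What set these libraries apart was not tested.

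The P5 minus P2 difference of controls differed between cell types in 8 of 18 tests on the same libraries. Compared with rods, progenitors had a larger log2 difference for Vim (by 3.16), Apoe (3.05), Dkk3 (2.48), Slc1a3 (2.36), Clu (2.26) and Glul (1.28). Compared with neurogenic cells, the difference in progenitors was larger for Clu (1.73) and smaller for Rlbp1 (-2.22).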

How the results depend on the processing

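The direction of the age difference in progenitors held under every alternative in which a gene was tested (Aqp4 had too few UMIs after thinning and in progenitors split by mitotic UMI), and in controls the calls held for all but 3: Glul lost its call after thinning (adjusted p = 0.063), without the P5 replicate 1 libraries (0.13) and without a mitotic UMI (0.09), Vim without the P5 replicate 1 libraries (0.058), and Dkk3 was called by DESeq2 (0.041). Fewer genes were called over the whole table in controls (2602) after thinning to 2000 UMIs (1060), without the P5 replicate 1 libraries (1148) and in progenitors without a mitotic UMI (969), and in MEIS libraries 1906, 2762 and 1297 against 4435. Each of these uses fewer UMIs, libraries or cells. For MEIS at P2 (2 genes called), DESeq2 gave 6, a fit of the groups compared alone 0, groups from the start of the cell names 414, leaving out the low-depth P2 MEIS2 library 1, progenitors with a mitotic UMI 0, and leaving out the 3 doubtful libraries, chosen after seeing the data, 492. For MEIS at P5 (3), DESeq2 gave 6 and leaving out the P5 replicate 1 libraries 1; for the interaction (0) DESeq2 gave 2. The cause of these differences was not tested. Under MEIS2 at P2, Clu became the 1 gene of the 9 called with DESeq2, without TMM factors, without a low-count filter, groups from the cell names, thinning, no Scrublet doublets, and no mitotic UMI, and it was -0.10 without the low-depth library. DESeq2 called 7.04% of all genes in that contrast. The share of all genes is not given for the other settings, so these calls have no background and are not read as particular to Clu. In rods DESeq2 called 2 of the 8 genes tested higher with age (8.99% of all genes). At P2, small differences between MEIS and control changed sign, none called, with these log2 values: without TMM factors Slc1a3 0.049, Aqp4 0.044, Dkk3 0.15 and Vim 0.032, with groups from the cell names Rlbp1 -0.077, Slc1a3 0.078 and Dkk3 0.016, after thinning Rlbp1 -0.028, without Scrublet doublets Kcnj10 -0.018, without the low-depth library Kcnj10 -0.065, Clu -0.12, Dkk3 0.056 and Vim 0.046, in progenitors with a mitotic UMI Slc1a3 0.17, Kcnj10 -0.023, Dkk3 0.041 and Vim 0.068, without the 3 doubtful libraries Slc1a3 0.19, Kcnj10 -0.028, Dkk3 0.13 and Vim 0.010. At P5, small differences between MEIS and control changed sign, none called, with these log2 values: after thinning Clu 0.053, without the P5 replicate 1 libraries Clu 0.11, in progenitors without a mitotic UMI Rlbp1 -0.0046 and Clu 0.076. Leaving out each library in turn, the count of genes called was 0 to 761 for MEIS at P2, 2 to 5 for MEIS at P5, 0 to 8 for the interaction and 1573 to 3214 for age in controls (in controls 1708 without P2 control 2, 1573 without P2 control 3, 1665 without P5 control 1 and 1651 without P5 control 2). For MEIS2 against control at P2, leaving out 1 MEIS2 library leaves 1 in that group, so no count among the 9 is given there. Without P2 MEIS2 replicate 1 the group is the low-depth library alone. Log2 differences at P2 (MEIS) ran from -0.997 to -0.18 for Apoe, -1.76 to 0.18 for Aqp4, -0.12 to 1.67 for Clu, -0.16 to 0.056 for Dkk3, -0.068 to 0.31 for Glul, -0.16 to 0.39 for Kcnj10, -0.17 to 0.27 for Rlbp1, -0.30 to 0.11 for Slc1a3 and -0.48 to 0.046 for Vim. Log2 differences at P5 (MEIS) ran from -0.48 to 0.024 for Apoe, -0.83 to -0.17 for Aqp4, -0.39 to 0.030 for Clu, -0.30 to -0.13 for Dkk3, 0.0066 to 0.30 for Glul, -0.11 to 0.12 for Kcnj10, -0.021 to 0.23 for Rlbp1, -0.39 to -0.16 for Slc1a3 and -0.022 to 0.16 for Vim. That of Clu for MEIS2 against control at P2 was -0.10 to 5.26. That of Glul for P5 minus P2, controls was 0.73 to 1.03. With the replicate block the count was 1 for MEIS at P2 and 5 at P5, Rlbp1 was -0.011 and -0.070, and Vim at P5 -0.012. The numbers were not taken to pair the samples, since the labels name no shared animal or batch and the deviations of same-numbered controls correlated at 0.185, 0.0936, 0.285 and 0.118; 5 of 8 libraries correlated best with their own number, a hint from the data, and a shared batch was not tested. The numbers are those of the titles; the cell names give every control library another number or group. An age test of progenitors with a mitotic UMI was not run, since 1 P5 control library had at least 20 such cells, nor one of cells named Müller Glia or their fit by construct. Depth limits Aqp4 most.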

Other observations

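Amacrine cells, a class of inhibitory interneuron, also held Dkk3 and Slc1a3. Dkk3 in amacrine cells was at 94.4 to 126 CPM in P2 controls and 45.6 to 202 in P5 controls, and Slc1a3 at 48.5 to 124 and 16.6 to 57.4. In rods the same libraries had 20.8 to 27.0 and 3.01 to 11.7 CPM of Dkk3, and 13.4 to 26.4 and 14.6 to 19.4 of Slc1a3. A UMI of Dkk3 was present in 16.5% of P2 and 15.8% of P5 control amacrine cells thinned to 2000 UMIs, against 4.06% and 1.62% of rods. The difference between these 2 cell types was not tested.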
